A study of Caenorhabditis elegans with 6 samples.

Results

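Nuclear pore and nuclear transport genes of Caenorhabditis elegans were compared between worms exposed to FUDR (fluorodeoxyuridine) at 50 µM in their plates and untreated worms. Once phosphorylated in the cell, this pyrimidine analogue inhibits thymidylate synthase and so starves DNA synthesis of thymidine. The genes were those whose symbol begins with npp-, imb-, ima-, xpo- or ran-, a rule that used names and no measured value. It found 40 of the 46926 genes in the count table, of which 26 were npp, 3 ima, 3 imb, 3 xpo and 5 ran genes. Poly(A)-selected RNA of whole wild-type (WT) worms labelled as L4 larvae was sequenced in 3 libraries of the FUDR group and in 3 libraries of the OP50 group, which was untreated and fed Escherichia coli OP50. The length of the exposure and whether replicate libraries stem from separate worm populations are not stated in the labels.

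The nuclear pore complex is a ring-shaped channel through the nuclear envelope, built from nucleoporins, which worms name npp. A Y-shaped scaffold forms the outer rings, an inner ring holds the channel, and nucleoporins with phenylalanine-glycine repeats fill it. Importins and exportins are the receptors that carry proteins and RNA through that channel. Importin alpha binds the nuclear localisation signal of a cargo and travels with importin beta, and the small GTPase Ran, loaded with GTP inside the nucleus and emptied of it outside, sets the direction. In C. elegans the pore also takes part in mitosis, when the envelope breaks down and re-forms, and these genes are strongly used in the germ line and the early embryo. No sequence is shown, since no protein, promoter or genome sequence was used here.

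The libraries held between 61312034 and 84750980 reads assigned to genes in FUDR and between 66005990 and 99234226 in OP50. In a principal component analysis of all genes tested the first component, with 69.1% of the variance, separated the groups. The p-values below measure the spread between libraries, which may be technical.

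All 40 genes passed the filter on low counts. At a threshold of 0.05 on the Benjamini-Hochberg adjusted p of edgeR, 24 of the 40 (60%) were lower in FUDR, 1 (2.5%) was higher and 15 were not called. In RNA of whole worms, fewer cells of a type and less RNA per cell cannot be told apart. Over all 17022 genes tested 21% were lower and 20% higher, and 41.0% were called in either direction. The members' median log2 fold change, FUDR over OP50, was −0.31, against 0.05 over all genes tested. No member was lower by 2-fold or more, and 10 were lower by at least 1.5-fold. For 33 members the ranges of the groups were separate, with FUDR below OP50 in 31 and above it in 2. Over all genes tested FUDR lay below OP50 in 26.7% and above it in 28%.

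The members can be set beside genes of like abundance. Levels within the tested set are given as CPM, the count scaled to the size of the library, after TMM scaling, which allows for genes that take a large part of a library. Apart from npp-26, the members averaged between 51.8 and 776 CPM over both groups. Of the 3483 other genes in that range 49.7% were lower in FUDR and 9.76% higher, with a median log2 fold change of −0.29 and quartiles of −0.55 and 0.02. Among the members 60% were lower and 2.5% higher, so their median of −0.31 lay near that of these genes and their share of higher calls was smaller. All FUDR libraries were below all OP50 libraries for 77.5% of the members and for 58.3% of these genes. This comparison is a description added after the values were seen, with no test.

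Markers of the germ line were lower in FUDR as well. Of 30 germ line and oocyte markers 28 were lower in FUDR and 0 higher, with a median log2 fold change of −0.95, and in all 30 FUDR lay below OP50 without overlap. Their summed level was 7262, 6724 and 5537 CPM in the FUDR libraries and 12880, 12830 and 12310 CPM in the OP50 libraries. Of 25 markers of somatic tissues 1 (dpy-13) was lower and 5 higher, with a median of 0.03. The higher ones were elt-2 and ifb-2 of the intestine and unc-25, ric-4 and sng-1 of neurons, while other markers of both tissues were not called. The somatic sum was 14030, 10190 and 7398 CPM in the FUDR libraries and 12940, 12630 and 13490 CPM in the OP50 libraries. Most of it came from the muscle genes unc-54, unc-15 and lev-11 (means of 5450, 2060 and 1960 CPM in OP50), none of them called. Of these unc-54 had 5721, 3577 and 1996 CPM in the FUDR libraries. FUDR replicate 3 was thus the lowest library in both sums, and it was also the lowest for 29 of the 40 members. Of 10 sperm markers 2 were lower and 0 higher. No marker of these lists was at 0. The part of germ line content in the members' changes was not tested.

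**Figure D1:**
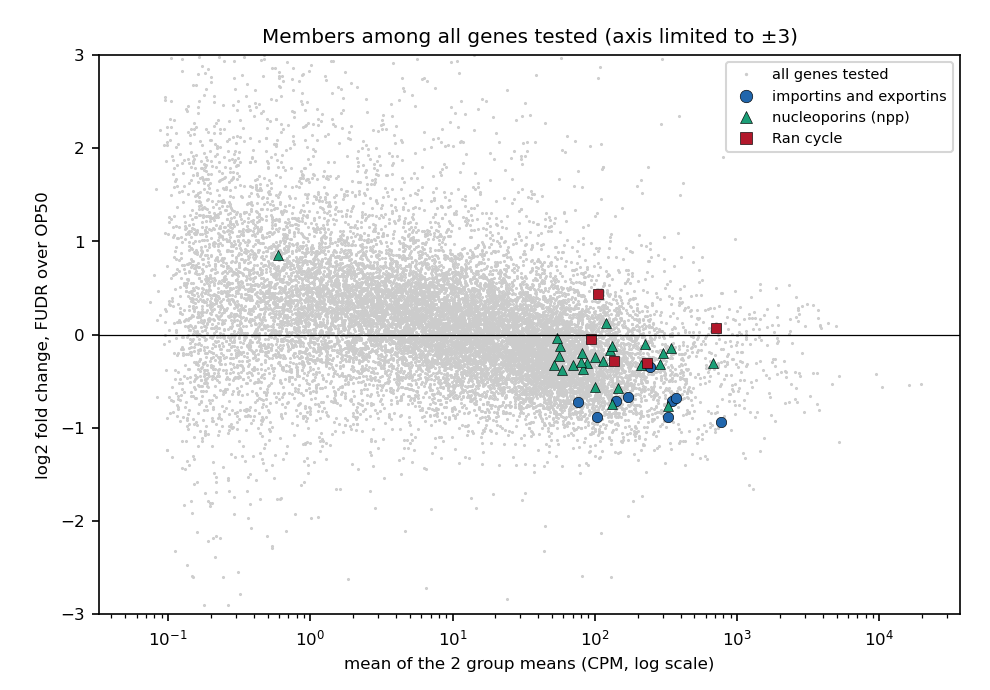
Log2 fold change of FUDR over OP50 (TMM scaling) against the mean of the group means in CPM on a log scale, with 1 point per gene tested and the members marked by kind. Of the 9 importin and exportin genes 8 lay between −0.67 and −0.94, while nucleoporin genes spread around the members' median of −0.31 and ran-4 lay above 0.

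All 9 importin and exportin genes were lower in FUDR, with a median log2 fold change of −0.71 and a range of −0.94 to −0.35. Importin alpha, the adaptor that reads nuclear localisation signals, has 3 genes in the worm. In C. elegans ima-1 and ima-2 are known as germ line genes, while ima-3 is also used in somatic tissues. The gene ima-1 (chromosome V, 11239675 to 11241792, WBcel235) had 56.5, 60.0 and 55.6 CPM in the FUDR libraries and 94.6, 94.8 and 94.0 CPM in the OP50 libraries. Its libraries were tight within groups and far apart between them, with a log2 fold change of −0.72 ± 0.0732 (SE, adjusted p = 0.000236), or 1.65-fold lower. The more abundant ima-2 (chromosome I, 6315233 to 6317262) had 262, 273 and 251 CPM in the FUDR libraries and 422, 438 and 428 CPM in the OP50 libraries and was 1.64-fold lower at −0.71 ± 0.0839 (adjusted p = 0.000422). For ima-3 (chromosome IV, 7558726 to 7561664) the levels were 265, 229 and 195 CPM in the FUDR libraries and 446, 401 and 423 CPM in the OP50 libraries, 1.84-fold lower at −0.88 ± 0.121 (adjusted p = 0.000797). For each of the 3 genes the gap between the groups was wider than the spread within either. Within the importin alpha pool the shares of the genes were close in both groups. Per exon length, ima-2 held 52.7%, 56.0% and 57.4% of importin alpha transcripts in the FUDR libraries and 51.6%, 54.6% and 53.0% in the OP50 libraries, ranges that overlap.

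The importin beta family holds the carriers that pass through the pore. The gene imb-1 (chromosome I, 4920683 to 4926486), importin beta itself, had 115, 111 and 96.5 CPM in the FUDR libraries and 179, 173 and 174 CPM in the OP50 libraries, with a log2 fold change of −0.71 ± 0.0908 (adjusted p = 0.000598). The transportin gene imb-2, whose product imports RNA-binding proteins in other animals, was 1.59-fold lower at −0.67 ± 0.0995 (adjusted p = 0.00116). The largest fall among the members was that of imb-3 (chromosome I, 310981 to 314989), an importin of the importin 5 kind, which in other species carries ribosomal proteins and histones. It had 636, 531 and 432 CPM in the FUDR libraries and 1077, 981 and 1001.1 CPM in the OP50 libraries, 1.91-fold lower at −0.94 ± 0.14 (adjusted p = 0.00116). The FUDR libraries of imb-3 were spread widely, and the highest of them was still well under the lowest OP50 library. Per length, imb-3 made up 38.5% of the transcripts of the 6 importin beta family and exportin genes in FUDR (mean of 3 libraries) and 44.1% in OP50, and its 3 FUDR shares all lay below its 3 OP50 shares.

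Exportins take cargo out of the nucleus. The gene xpo-3 (chromosome IV, 7916689 to 7924032), the exportin for tRNA, had 78.6, 72.6 and 65.3 CPM in the FUDR libraries and 133, 133 and 134 CPM in the OP50 libraries. The OP50 libraries were nearly equal, and the log2 fold change was −0.89 ± 0.0887 (adjusted p = 0.00023), 1.85-fold lower. The CRM1 gene xpo-1 (chromosome V, 7805064 to 7814656), the general exportin for proteins with a nuclear export signal, was 1.60-fold lower at −0.68 ± 0.144 (adjusted p = 0.00602), and its FUDR libraries were spread between 227 and 347 CPM. The smallest fold change among the receptors was that of xpo-2 (chromosome I, 318549 to 323352), the CAS exportin that returns importin alpha to the cytoplasm. It averaged 214 ± 22.6 CPM in FUDR and 272 ± 4.58 CPM in OP50 (SD, 3 libraries each), 1.27-fold lower at −0.35 ± 0.099 (adjusted p = 0.0216). Per length, xpo-2 held a larger share of these 6 genes in FUDR, with 17.5%, 19% and 19.5% in the FUDR libraries and 13.6%, 14.5% and 14.1% in the OP50 libraries.

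Of the 9 receptor calls, 8 were kept under each of the 15 alternatives run, which were other tests, scalings, filters and omitted libraries. How often calls of genes outside the members were kept was not counted. The same 8 genes had fold changes below the first quartile of genes of like abundance, −0.55. The xpo-2 call ended with upper quartile scaling (adjusted p = 0.0822), with library size only (0.24), and without OP50 replicate 2 (0.0789), OP50 replicate 3 (0.0667) or FUDR replicate 2 (0.057), over a range of 0.00406 to 0.24.

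**Figure D2:**
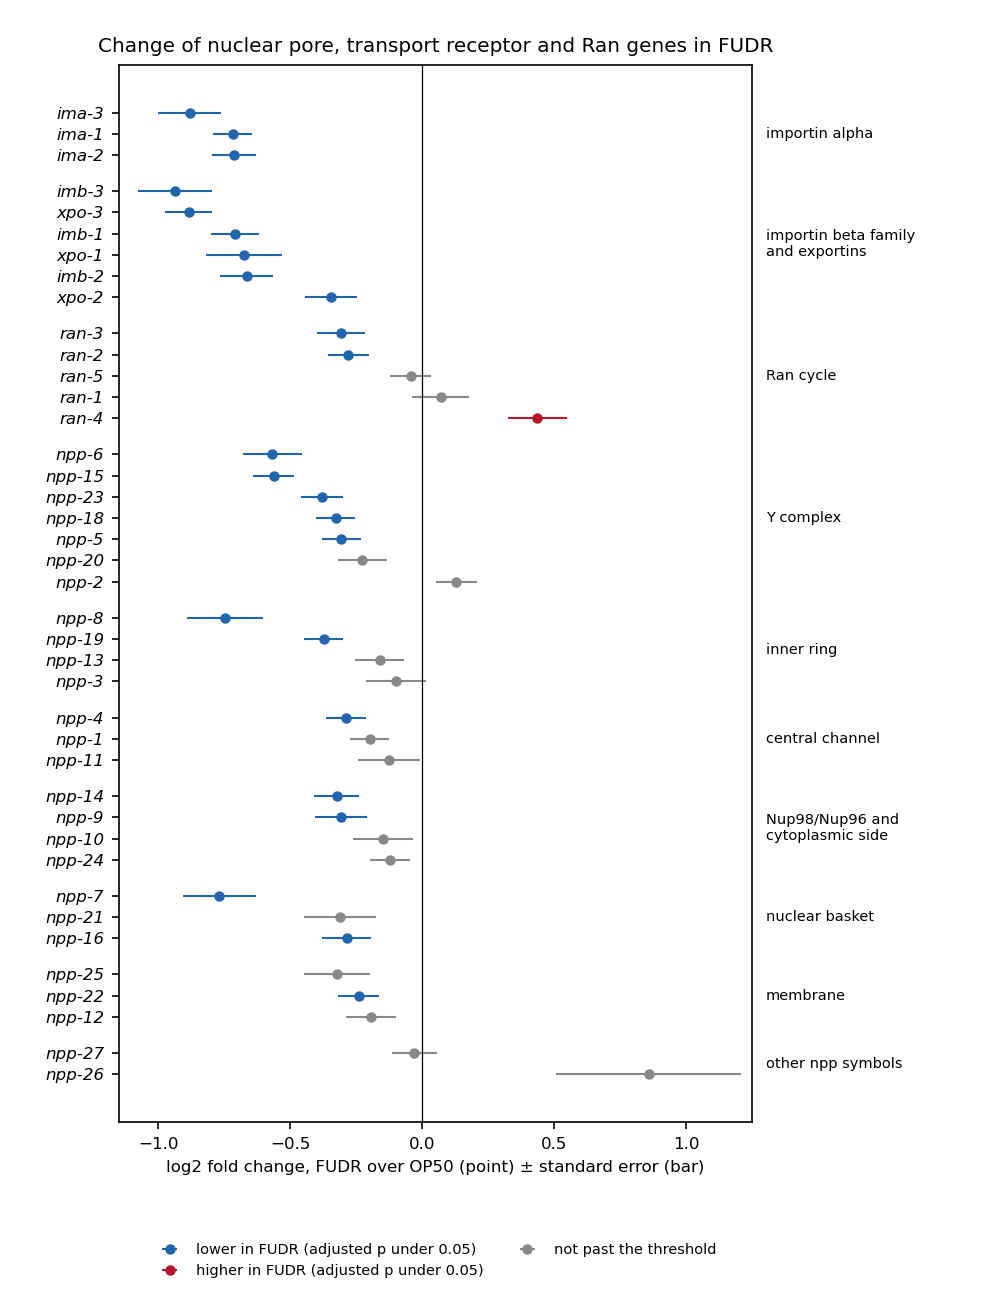
Log2 fold change of FUDR over OP50 (point) with its standard error (bar) from edgeR with TMM scaling, for each of the 40 genes grouped by role from top to bottom, with colours for lower, higher and not called. All importins and exportins but xpo-2 lie at −0.67 or further left, as do npp-7 and npp-8, and 10 genes left of 0, none of them called, lie right of it with library size only.

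The Ran cycle genes did not move as a group: 2 were lower, 1 was higher and 2 were not called, with a median log2 fold change of −0.045. The Ran GTPase itself, ran-1 (chromosome III, 10746581 to 10747728), had the highest level per exon length of all members. It had 642, 751 and 801 CPM in the FUDR libraries and 663, 719 and 710.0 CPM in the OP50 libraries. The groups overlapped, at 0.069 ± 0.107 (adjusted p = 0.636), and the interval of 2 SE on each side runs from −0.15 to 0.28. The gene ran-2 (chromosome III, 7933535 to 7937708) encodes RanGAP, which makes Ran hydrolyse its GTP in the cytoplasm, and had 129, 124 and 117 CPM in the FUDR libraries and 152, 148 and 149.6 CPM in the OP50 libraries, 1.21-fold lower at −0.28 ± 0.0784 (adjusted p = 0.0201). The gene of its nuclear counterpart, the exchange factor RCC1, is ran-3, which was 1.24-fold lower at −0.31 ± 0.0898 (adjusted p = 0.0235). So the genes of both regulators of Ran were lower while that of Ran was not called. Both falls lay near the median of genes of like abundance, −0.29, of which 49.7% were lower. Genes of like abundance with up to 1000 bp of exons, as ran-1 has, had a median of 0.12, and 16.1% of them were lower. A difference between ran-1 and its regulators was not tested.

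The exception in direction was ran-4 (chromosome I, 8591215 to 8591978), the worm form of NTF2, a small carrier that brings Ran back into the nucleus. It had 108, 116 and 138 CPM in the FUDR libraries and 81.1, 90.3 and 96.6 CPM in the OP50 libraries. Every FUDR library was above every OP50 library, with a log2 fold change of 0.43 ± 0.111 (adjusted p = 0.0136), or 35.2% higher. Its call ended without OP50 replicate 1 (adjusted p = 0.057) or 2 (0.0504). Genes of like abundance with up to 1000 bp of exons, as ran-4 has, had a median log2 fold change of 0.12. Their median log2 ratio to the OP50 mean was 0.04, 0.08 and 0.20 in FUDR replicates 1, 2 and 3. The part of length in the rise of ran-4 was not tested. The remaining gene, ran-5 (chromosome II, 6048109 to 6049686), had 86.7, 96.4 and 94.5 CPM in the FUDR libraries and 94.2, 97.7 and 94.4 CPM in the OP50 libraries, and its groups overlapped at −0.045 ± 0.0776 (adjusted p = 0.67), or 0.19 with library size only. The ran-2 and ran-3 calls were lost with library size only (adjusted p = 0.574 and 0.428), with upper quartile scaling (0.15 and 0.134) and with a filter of 5 CPM (0.0541 and 0.0615). Leaving out OP50 replicate 1, 2 or 3 or FUDR replicate 2 ended both as well (adjusted p between 0.0526 and 0.0804).

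Among the 26 nucleoporin genes 13 (50%) were lower, 0 higher and 13 not called, with a median log2 fold change of −0.29. Of the 3483 genes of like abundance 49.7% were lower, with a median of −0.29, so nucleoporin genes as a group were near these genes. The counts by role below are to be read beside that share. With library size only, 4 were lower and 2 (npp-2 and npp-26) higher, and with upper quartile scaling 6 were lower and the same 2 higher. Without OP50 replicate 2, 7 were lower. Over all genes tested 11.3%, 14.6% and 15.5% were lower in these fits, in that order, and 34.2%, 29.2% and 13.7% higher. The fold changes of npp-1, npp-3, npp-10, npp-11, npp-12, npp-13, npp-20, npp-24 and npp-27, none of them called, had the opposite sign with library size only. The 4 largest falls were those of npp-7, npp-8, npp-6 and npp-15, which belong to 3 different parts of the pore. In the Y complex, the outer scaffold, 5 of 7 genes were lower. The gene npp-15 (chromosome III, 7929043 to 7933055), the Nup133 gene, had 84.3, 82.6 and 75.7 CPM in the FUDR libraries and 120.4, 117 and 121 CPM in the OP50 libraries, with a log2 fold change of −0.56 ± 0.0784 (adjusted p = 0.00084). The gene npp-6 (chromosome I, 5176829 to 5182801), the Nup160 gene, had 134, 119.001 and 99.6 CPM in the FUDR libraries and 176, 172 and 176 CPM in the OP50 libraries, at −0.57 ± 0.112 (adjusted p = 0.00423). Both were 1.48-fold lower with no overlap. The genes of Nup43 (npp-23, −0.38 ± 0.0794), Seh1 (npp-18, −0.33 ± 0.0741) and Nup107 (npp-5, −0.31 ± 0.0733) were lower too, with adjusted p of 0.00541, 0.00772 and 0.0101. These 3 calls ended with library size only (adjusted p = 0.214, 0.39 and 0.481), those of npp-18 and npp-5 also with upper quartile scaling (0.0901 and 0.113), and that of npp-5 without OP50 replicate 2 (0.0525).

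The other Y complex genes were not called. The Sec13 gene npp-20, whose product also coats vesicles that leave the endoplasmic reticulum, had 46.5, 54.7 and 52.8 CPM in the FUDR libraries and 56.9, 58.0 and 65.4 CPM in the OP50 libraries (−0.23 ± 0.0937, adjusted p = 0.0815). The Nup85 gene npp-2 had 120.0, 126 and 131 CPM in the FUDR libraries and 111, 117 and 116 CPM in the OP50 libraries. Its FUDR libraries were all above its OP50 libraries by a small margin, at 0.13 ± 0.0775 (adjusted p = 0.216), and the gene was called higher with library size only, with upper quartile scaling and with the filter of 5 CPM. Log2 fold changes of genes for parts of the same scaffold thus ran from −0.57 to 0.13.

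The inner ring, which lines the pore, had 2 lower genes of 4. The gene npp-8 (chromosome IV, 1567921 to 1595824), the Nup155 gene, had 115, 104 and 75.5 CPM in the FUDR libraries and 170.0, 161 and 163 CPM in the OP50 libraries, 1.68-fold lower at −0.75 ± 0.143 (adjusted p = 0.00359). The small inner ring gene npp-19 (chromosome II, 10796653 to 10798479), of Nup35, had 69.7, 73.1 and 72.7 CPM in the FUDR libraries and 96.1, 93.5 and 89.8 CPM in the OP50 libraries, at −0.37 ± 0.0735 (adjusted p = 0.0041, or 0.196 with library size only). The FUDR libraries of npp-19 were close together where those of npp-8 were spread, and both genes were clear of OP50. The scaffold genes npp-13 (Nup93) and npp-3 (Nup205) were not called. The levels of npp-13 were 132, 122 and 107 CPM in the FUDR libraries and 133, 135 and 136 CPM in the OP50 libraries (−0.16 ± 0.0932, adjusted p = 0.193). Those of npp-3 were 245, 223 and 186 CPM in the FUDR libraries and 246, 222 and 232 CPM in the OP50 libraries (−0.099 ± 0.113, adjusted p = 0.512). In both genes FUDR replicate 3 was the lowest library, and the groups overlapped for npp-3 and not for npp-13. The exons of npp-3 share 314 bp with another gene on the same strand, and those of npp-8 share 143 and 93 bp with noncoding RNA genes on the same strand. The counts of both are thus less certain.

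Of the 3 central channel genes 1 was lower. These encode the Nup62, Nup58 and Nup54 proteins, whose phenylalanine-glycine repeats fill the channel. The gene npp-4 (chromosome I, 14701122 to 14706522), the Nup58 gene, had 74.5, 73.2 and 67.4 CPM in the FUDR libraries and 87.4, 89.1 and 86.4 CPM in the OP50 libraries, at −0.29 ± 0.076 (adjusted p = 0.0152). The Nup54 gene npp-1 had 73.2, 78.3 and 76.5 CPM in the FUDR libraries and 85.6, 89.5 and 86.8 CPM in the OP50 libraries, without overlap between groups (−0.20 ± 0.0731, adjusted p = 0.0556), and it was called lower with DESeq2 (adjusted p = 0.0323), with RLE factors (0.0453) and without FUDR replicate 3 (0.0296). The Nup62 gene npp-11 had 144, 129 and 105 CPM in the FUDR libraries and 141, 133 and 138 CPM in the OP50 libraries, and its groups overlapped (−0.13 ± 0.117, adjusted p = 0.416). The npp-4 call ended with library size only, with upper quartile scaling and without OP50 replicate 2 (adjusted p = 0.0699) or 3 (0.0506).

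On the cytoplasmic face and in the Nup98 and Nup96 gene, 2 of 4 genes were lower. The gene npp-14 (chromosome I, 9660174 to 9664915), the Nup214 gene, had 199, 193 and 175 CPM in the FUDR libraries and 241, 236 and 232 CPM in the OP50 libraries, at −0.33 ± 0.0864 (adjusted p = 0.016). The Nup358 gene npp-9 (chromosome III, 3400638 to 3404479), the most abundant nucleoporin transcript by length, had 667, 588 and 555 CPM in the FUDR libraries and 753, 735 and 749.7 CPM in the OP50 libraries, at −0.31 ± 0.0988 (adjusted p = 0.0352). Neither gene's groups overlapped, and FUDR libraries were more spread than OP50 libraries for both. The gene npp-10, which encodes Nup98 and Nup96 in 1 precursor, had 362, 333 and 274 CPM in the FUDR libraries and 371, 353 and 349 CPM in the OP50 libraries and was not called (−0.15 ± 0.114, adjusted p = 0.328). The Nup88 gene npp-24 had 57.6, 54.5 and 52.2 CPM in the FUDR libraries and 59.9, 58.5 and 60.5 CPM in the OP50 libraries (−0.12 ± 0.0743, adjusted p = 0.217). The npp-14 and npp-9 calls ended with library size only (adjusted p = 0.319 and 0.424), with upper quartile scaling (0.0843 and 0.167) and without OP50 replicate 2 (0.0626 and 0.0951) or FUDR replicate 2 (0.0538 and 0.126). That of npp-9 ended also with the filter of 5 CPM (0.0786) and without OP50 replicate 1 (0.0719) or 3 (0.0986).

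The RNA export factor gene rae-1 belongs with the cytoplasmic face and was once named npp-17, a symbol that the gene names used here no longer hold, so it lies outside the rule. It had 136, 141.6 and 145 CPM in the FUDR libraries and 100.4, 103 and 100.1 CPM in the OP50 libraries, with a log2 fold change of 0.48 ± 0.075 (adjusted p = 0.00143). All of its FUDR libraries were above its OP50 libraries, a direction that no tested npp gene took past the threshold. The gene mel-28, whose product ELYS seats new pores on chromatin, also carries no npp symbol. It had 200.5, 176 and 152 CPM in the FUDR libraries and 262, 254 and 256 CPM in the OP50 libraries, at −0.55 ± 0.11 (adjusted p = 0.00458).

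The nuclear basket hangs from the inner face of the pore. The gene npp-7 (chromosome I, 5692264 to 5697500), the Nup153 gene, had 289, 247 and 194 CPM in the FUDR libraries and 423, 409 and 412 CPM in the OP50 libraries, 1.70-fold lower at −0.77 ± 0.138 (adjusted p = 0.0027), the largest fall of any nucleoporin gene. The Nup50 gene npp-16 was lower at −0.29 ± 0.0927 (adjusted p = 0.0357), a call lost under 7 of the 15 alternatives, among them those without OP50 replicate 1 (0.0812), 2 (0.0986) or 3 (0.092) or FUDR replicate 2 (0.0923). The TPR gene npp-21 had 302, 263 and 208 CPM in the FUDR libraries and 341, 310.4 and 309 CPM in the OP50 libraries and was not called (−0.31 ± 0.135, adjusted p = 0.093). Its highest FUDR library lay just under its lowest OP50 library, and without FUDR replicate 1 it was called lower (adjusted p = 0.0148).

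Of the 3 membrane nucleoporin genes, which anchor the pore in the envelope, 1 was lower. The gene npp-22 (chromosome V, 11731120 to 11733472), the NDC1 gene, had 90.4, 98.03 and 88.8 CPM in the FUDR libraries and 108, 112 and 108 CPM in the OP50 libraries (−0.24 ± 0.0775, adjusted p = 0.0349), and its call ended under 9 of the 15 alternatives, among them each omission of a library other than FUDR replicate 3 (adjusted p between 0.0564 and 0.129). The gp210 gene npp-12 had 307, 281 and 257 CPM in the FUDR libraries and 319.9, 324 and 324 CPM in the OP50 libraries (−0.20 ± 0.0936, adjusted p = 0.125). The TMEM33 gene npp-25 had 55.3, 44.4 and 38.2 CPM in the FUDR libraries and 57.2, 58.2 and 57.3 CPM in the OP50 libraries (−0.33 ± 0.125, adjusted p = 0.0655). All 3 were without overlap between groups, with OP50 libraries much tighter than FUDR libraries for npp-12 and npp-25, and without FUDR replicate 1 npp-12 (adjusted p = 0.041) and npp-25 (0.00316) were called lower.

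No role is given here to npp-27 or npp-26. The levels of npp-27 were 57.7, 53.2 and 49.3 CPM in the FUDR libraries and 51.9, 56.2 and 55.6 CPM in the OP50 libraries, which overlap between groups (−0.031 ± 0.0848, adjusted p = 0.795). The npp-26 gene had few reads, with 50, 90 and 47 counts in the FUDR libraries and 34, 35 and 25 counts in the OP50 libraries. At 0.80, 0.97 and 0.53 CPM in the FUDR libraries and 0.36, 0.58 and 0.34 CPM in the OP50 libraries it was not called (0.86 ± 0.35, adjusted p = 0.0793), though without FUDR replicate 3 it was called higher (0.04), and every other member had at least 2920 counts in each library.

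**Figure D3:**
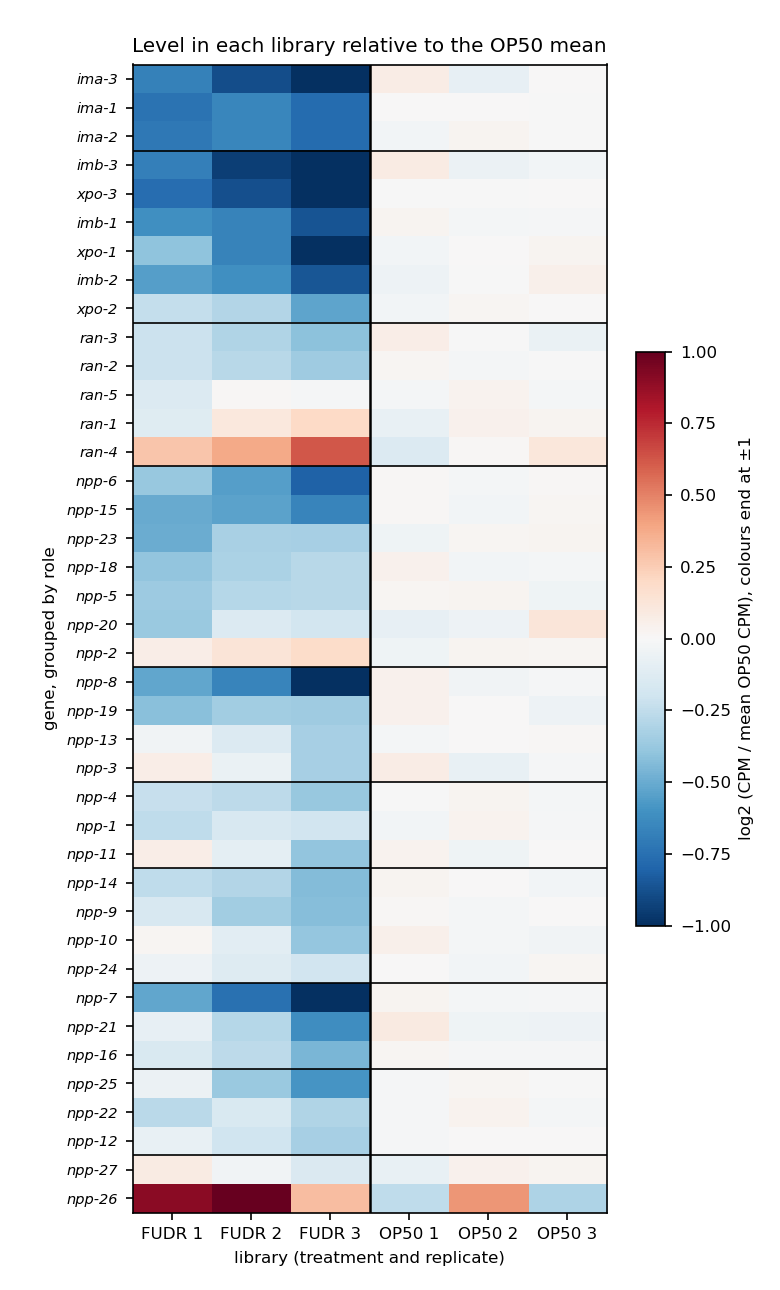
Each row is a gene, grouped by role in the same order as above and separated by black lines, and each column a library, with FUDR left of OP50. Colour gives the log2 ratio of CPM (TMM scaling) to the mean of the OP50 libraries, ending at ±1. FUDR 3 is the darkest blue column, holding the lowest value of 29 of the 40 genes, while ran-4, npp-2 (pale) and the sparsely counted npp-26 (dark), of which ran-4 was called, are red in all FUDR columns.

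The FUDR libraries differed among themselves. The median over members of the log2 ratio to the OP50 mean was −0.24 in FUDR replicate 1, −0.29 in FUDR replicate 2 and −0.39 in FUDR replicate 3, and between −0.01 and 0.01 in the OP50 libraries. FUDR replicate 3 held the lowest value of 29 members and FUDR replicate 1 that of 8. Without FUDR replicate 3, 25 members were lower and 2 higher, with a median of −0.25. Without OP50 replicate 2, 15 were lower and 0 higher, with a median of −0.32. Over all genes tested 21.6% were lower and 17.9% higher without FUDR replicate 3, and 15.5% and 13.7% without OP50 replicate 2.

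The count of calls depended on the scaling of the libraries. With library size only, the median of all genes tested moved to 0.28 and that of the members to −0.084, while with upper quartile scaling they were 0.20 and −0.16. A change of scaling shifts all genes alike, so the gap between the medians of members and all genes, −0.36 under TMM, is nearly fixed across scalings. It was −0.22 with a filter of 5 CPM, −0.42 with no filter and −0.29 without FUDR replicate 3. That gap is to all genes tested. Genes of like abundance had a median of −0.29 under TMM, near the members' −0.31, so the gap is not particular to the members. Of the members 12 were lower and 3 higher with library size only, and 14 lower and 3 higher with upper quartile scaling, against 24 lower and 1 higher with TMM. Over all genes tested, lower calls were 51.3% of calls with TMM, 24.9% with library size only and 33.4% with upper quartile scaling. Of all genes tested 11.3% were lower and 34.2% higher with library size only, and 14.6% lower and 29.2% higher with upper quartile scaling. The 12 members called lower in the TMM fit and under all 15 alternatives were ima-1, ima-2, ima-3, imb-1, imb-2, imb-3, xpo-1, xpo-3, npp-6, npp-7, npp-8 and npp-15, that is, 8 receptors and 4 nucleoporins. How many other genes were lower under all 15 was not counted, so this list has no background beside it.

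Relative to nucleoporin transcripts, receptor transcripts were fewer in FUDR. Levels per exon length are given as TPM, the count per base of exon scaled to the same total in each library over all genes. Summed over the 9 importin and exportin genes they were 894, 837 and 692 TPM in the FUDR libraries and 1362, 1244 and 1248 TPM in the OP50 libraries. Summed over the 26 nucleoporin genes they were 1591, 1538 and 1354 TPM in FUDR and 1813, 1676 and 1672 TPM in OP50. The ratio of the first sum to the second was 0.562, 0.544 and 0.511 in FUDR and 0.751, 0.742 and 0.746 in OP50. It was lower in each FUDR library than in any OP50 library, and it does not depend on library scaling. The difference between the fold changes of the groups of genes was not tested. The first sum rests most on imb-3, ima-2 and ima-3, with means of 330, 285 and 194 TPM in OP50. Receptor genes had a median of 3238 bp of exons and nucleoporin genes one of 2599.5 bp. Among genes of like abundance longer ones had lower medians, as given below, and the part of length in the ratio was not tested. The Ran cycle genes summed to 1333, 1518 and 1558 TPM in FUDR and 1330, 1327 and 1310 TPM in OP50.

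The order of levels changed at its top. In FUDR the most abundant members per length were ran-1 (968 ± 102 TPM, SD over 3 libraries), npp-9 (252 ± 25.9), ran-4 (241 ± 27.0), ima-2 (185 ± 10.9) and imb-3 (183 ± 36.4). In OP50 they were ran-1 (869.8 ± 9.31 TPM), imb-3 (329.5 ± 29.4), npp-9 (294 ± 14.2), ima-2 (285 ± 8.31) and ima-3 (194 ± 17.4). So imb-3 held rank 5 in FUDR and rank 2 in OP50, and ran-4 held rank 3 in FUDR and rank 6 in OP50. In OP50 the libraries of npp-9 and ima-2 overlapped. There ran-1, imb-3, ima-2, ima-3, ran-4, ran-3, xpo-1 and xpo-2 did not overlap the gene below them in the order, some by a small margin. The lowest OP50 library of imb-3 had 310.71 TPM and the highest of npp-9 had 310.16 TPM. In FUDR the libraries of ran-4 (217, 236 and 270.4 TPM) overlapped those of npp-9 (279, 249.75 and 227 TPM), and the libraries of imb-3 (218, 185 and 145 TPM) overlapped those of ima-2 (185, 196 and 174 TPM), so these neighbours were not apart. In OP50, from npp-16 downward nearly all neighbours overlapped, since most nucleoporins lay between 32.9 and 92.8 TPM.

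**Figure D4:**
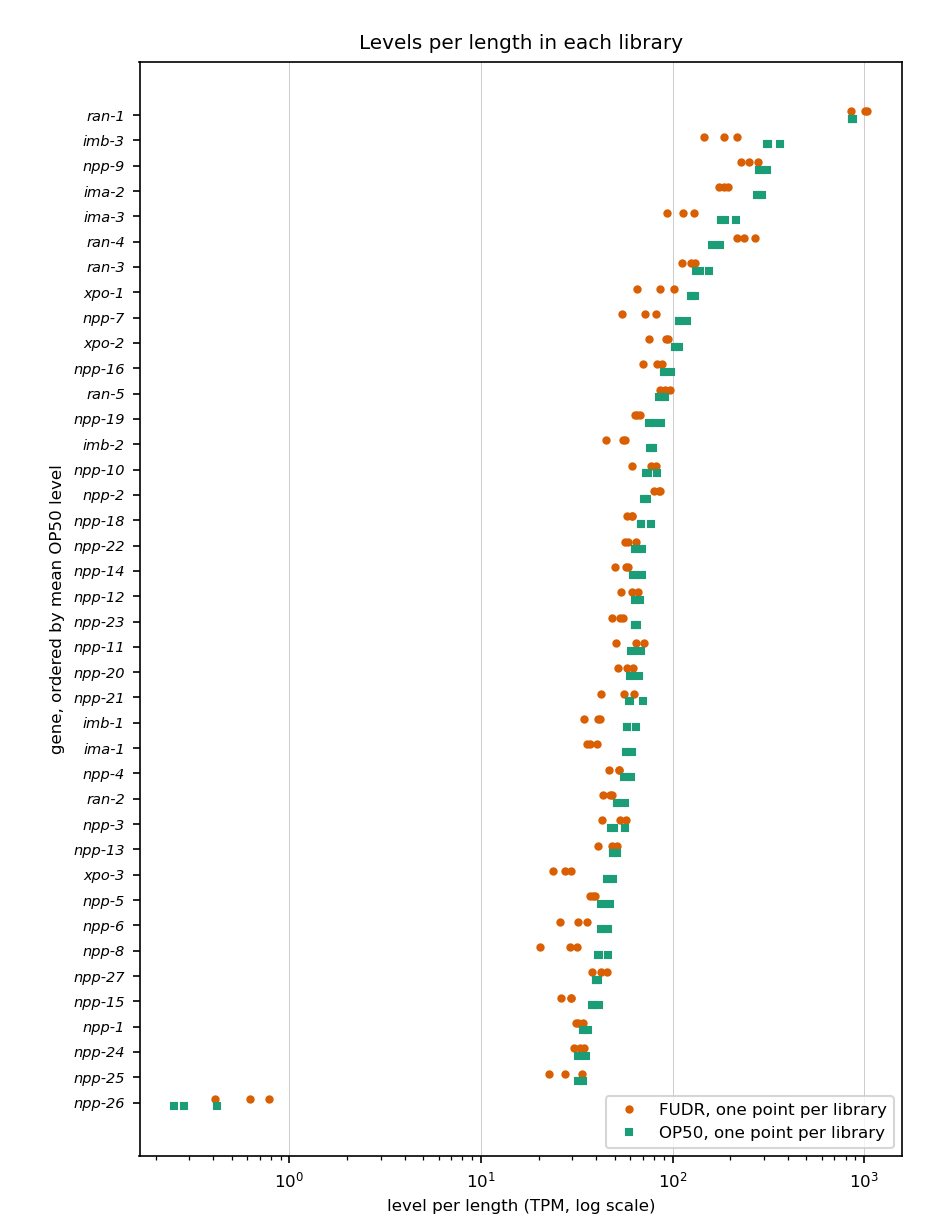
Level per exon length in TPM on a log axis for each gene and library, ordered by the mean of the OP50 libraries, with FUDR as orange circles above OP50 as green squares. The FUDR points of imb-3, ima-3, xpo-1, npp-7 and xpo-3 lie clear to the left of their OP50 points, and those of ran-4 to the right.

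Transcript length moved with the result as well. Among the 3483 genes of like abundance, the median log2 fold change was 0.12 for 621 genes with up to 1000 bp of exons, −0.22 for 1248 genes above that and up to 2000 bp, −0.43 for 1183 genes above 2000 and up to 4000 bp and −0.53 for 431 longer genes. FUDR replicate 3 stood apart in this. For the genes over 4000 bp the median log2 ratio to the OP50 mean was −0.29, −0.49 and −0.84 in FUDR replicates 1, 2 and 3, and between −0.03 and 0.03 in the OP50 libraries. Across the 40 members the Spearman correlation of log2 fold change with exon length was −0.36, against −0.47 across the 3483 other genes. These are descriptions across genes that share libraries.

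Members can be set beside other genes of their length. The 2 members up to 1000 bp were ran-1 (959 bp) and ran-4 (635 bp), neither of them lower. The 9 receptors had between 1803 and 4329 bp, with a median of 3238 bp. Their median of −0.71 compares with −0.43 for the 1183 genes above 2000 and up to 4000 bp, of which 66.9% were lower. Outside that class lie ima-1, ima-2 and xpo-1. With 4329 bp, xpo-1 was at −0.68 ± 0.144, and the 431 genes over 4000 bp had a median of −0.53, with 62.2% lower. The importin alpha genes ima-1 (1929 bp) and ima-2 (1803 bp), at −0.72 and −0.71, fall where 1248 genes had a median of −0.22 and 45.9% were lower. The 9 members over 4000 bp had a median of −0.32, against −0.53 for other genes of that length. The part of length in the members' changes was not tested.

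Other genes of the nuclear envelope, mRNA export and SUMO pathways were called in both directions. Of 15 nuclear envelope genes 7 were lower and 2 higher, with a median of −0.34. The SUN-domain gene sun-1, whose product links meiotic chromosomes to the envelope, was at −0.78 ± 0.0796 (adjusted p = 0.000236), and ooc-5, a torsin gene, at −0.60 ± 0.0841 (adjusted p = 0.00084). The higher ones were baf-1, whose product bridges chromatin and envelope, with 164, 184 and 235.2 CPM in the FUDR libraries and 74.3, 83.3 and 84.1 CPM in the OP50 libraries (1.27 ± 0.136, adjusted p = 0.000278), and unc-84, the somatic SUN-domain gene (0.48 ± 0.0981, adjusted p = 0.00491). The libraries of baf-1 did not overlap between groups.

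Of 13 mRNA export genes 6 were lower and 2 higher, with a median of −0.22. The 2 higher genes had the largest changes of these lists. The ALY export adaptor gene aly-1 had 45.5, 55.0 and 64.2 CPM in the FUDR libraries and 9.51, 9.59 and 10.2 CPM in the OP50 libraries, 5.62-fold higher at 2.49 ± 0.13 (adjusted p = 1.56e-05). The NXT1 gene nxt-1, partner of the main mRNA export receptor, had 72.8, 82.5 and 105 CPM in the FUDR libraries and 33.3, 37.4 and 34.9 CPM in the OP50 libraries, 2.47-fold higher at 1.304 ± 0.132 (adjusted p = 0.000233). In both, every FUDR library was above every OP50 library, while thoc-5 of the THO complex was lower (−0.50 ± 0.072, adjusted p = 0.001). Of 9 SUMO pathway genes 6 were lower and 1 higher, with a median of −0.40. The SUMO protease genes ulp-5 (−0.98 ± 0.0926, adjusted p = 0.000191) and ulp-2 (−0.63 ± 0.0787, adjusted p = 0.000533) and the conjugating enzyme gene ubc-9 (−0.51 ± 0.0795, adjusted p = 0.00145) fell, and the SUMO ligase gene gei-17 rose (0.27 ± 0.0848, adjusted p = 0.0329).

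**Figure D5:**
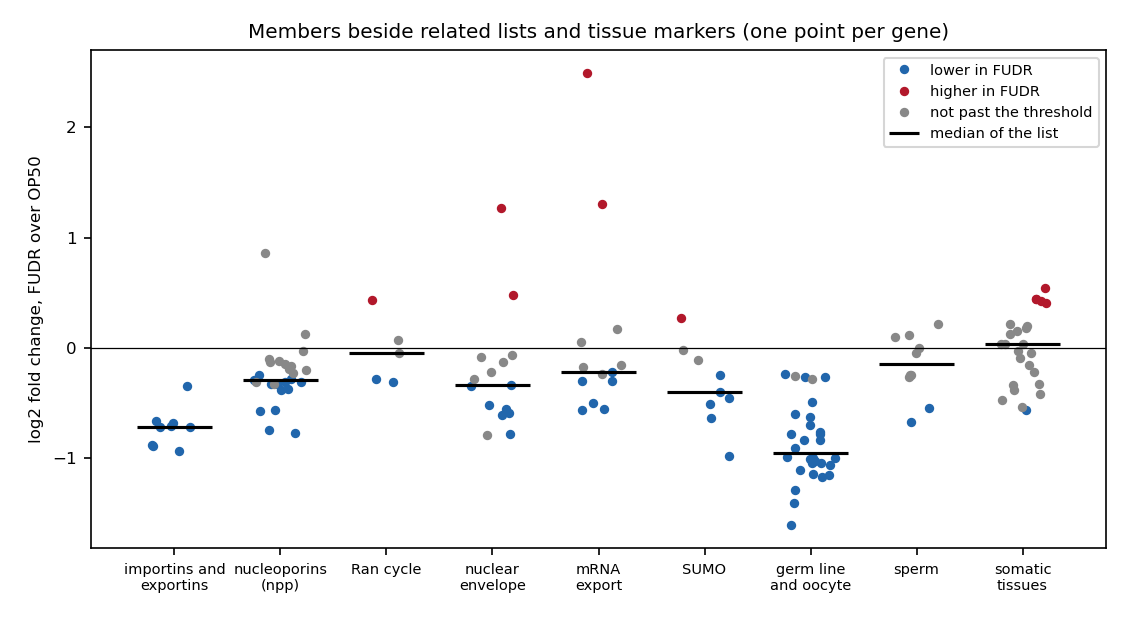
Log2 fold change of FUDR over OP50 (TMM scaling) for each gene of the member groups, the related lists and the tissue markers, with 1 point per gene, colours for lower, higher and not called, and a bar at each list's median. The bars run from −0.95 for germ line and oocyte markers through −0.71 for importins and exportins and −0.29 for nucleoporins to 0.03 for somatic markers.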

How the data were processed

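The authors deposited a table of raw read counts per gene for the 6 libraries. Per the submitters' processing notes STAR, HTSeq and WBcel235 were used. For none of these is a version given in the sources used here, nor a gene annotation or strandedness for the counting. The 5 summary rows of the table held 4.55% to 5.33% of reads and were left out.

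All 46926 gene identifiers were found in an Ensembl WBcel235 annotation, which gave symbols, positions and exon lengths. Genes passing filterByExpr (minimum count 10, minimum total 15) were fitted with edgeR 4.0.16 (R 4.3.3, robust quasi-likelihood test, TMM factors, no covariate), and p-values were adjusted by Benjamini-Hochberg over the 17022 genes tested. SE is the absolute log2 fold change divided by the root of F. TPM used union exon lengths. DESeq2 1.42.0, limma 3.58.1 and other scalings, filters and omitted libraries were alternatives. The fit was tested on simulated data. Any 2 libraries of a group differed by far more than counting noise (chi-square per degree of freedom at least 18.7).

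The members and the lists were chosen with earlier results of these data known. Values in every library are given for the members of smallest p in each role (2 in roles of 4 or more, otherwise 1), for members not called and for those called against the majority. In related lists the 3 of smallest p and any called against the majority are named. The genes imb-3, ima-2 and ima-3 were added after their values were seen.

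Exons of 16 members overlap those of another gene, on the opposite strand in 12 (at most 153 bp, in xpo-1) and on the same strand in 5. The latter are npp-3 (314 bp), npp-10 (219 bp), npp-8, npp-24 and npp-6. Reads in such overlaps may be assigned to either gene or neither.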

Additional observations from a re-analysis of the deposited data

How the results depend on the processing

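Of 599 results for members under the 15 alternatives, 505 kept their direction and their side of the threshold, 60 lost a call, 14 gained one and 20 changed sign, and no called fold change changed sign. With upper quartile scaling 14 members were lower and 3 higher, the median was −0.16, and npp-3 (0.048), npp-11 (0.020), ran-5 (0.11), npp-27 (0.12) and npp-24 (0.027) changed sign. With library size only, 12 were lower and 3 higher, the median was −0.084, 19 members had no overlap, and npp-1 (0.030), npp-3 (0.12), npp-10 (0.073), npp-11 (0.093), npp-12 (0.028), npp-13 (0.061), npp-20 (0.006), ran-5 (0.19), npp-27 (0.19) and npp-24 (0.10) changed sign. With a filter of 5 CPM in 3 libraries 19 were lower and 2 higher, the median was −0.20, and npp-3 (0.007), ran-5 (0.066) and npp-27 (0.077) changed sign. Of all genes tested 14.6% were lower and 29.2% higher with upper quartile scaling, and 11.3% lower and 34.2% higher with library size only. With the filter of 5 CPM 25.6% were lower and 25.8% higher. Each of these settings changes the scaling factors of the libraries, which shifts all genes nearly alike. Why the factors differ between settings was not tested. Leaving out 1 library at a time gave 15 to 26 lower and 0 to 2 higher members, medians of −0.35 to −0.25, log2 fold changes of −0.005 to 0.15 for ran-1 and of −0.094 to 0.019 for npp-27. Over all genes tested those fits called 15.5% to 22.2% lower and 13.5% to 19.7% higher. No shared deviation of same-numbered libraries was seen, with correlations of 0.055, −0.017 and 0.058, which cannot tell whether the libraries were made in pairs. With the number as a replicate block 23 members were lower and 1 higher, the lost call being that of npp-9 (adjusted p = 0.0545). DESeq2 gave 26 lower and 1 higher. Over all genes tested DESeq2 called 23.3% lower and 20.5% higher, and the fit with a replicate block 20.8% and 18.9%. With the longest transcript in place of the exon union, 39 levels were within the spread between libraries and npp-13 moved to 54.7 TPM, against 49.5 TPM. Counting depth limits npp-26 alone among the members. The labelled stage, the 3 libraries per group and the unstated exposure time limit what these comparisons cover.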

Other observations

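The members were unevenly placed on the chromosomes. Chromosome I held 13 of the 40 (32.5%), against 15.7% of all genes tested and 21.4% of genes of like abundance. Of those 13, 8 were lower in FUDR, a share near that of all members (60%). Of genes of like abundance on any chromosome 49.7% were lower. Chromosome X held 0, against 14.2% of genes tested and 7.92% of genes of like abundance. The imb-3 and xpo-2 genes lie 3559 bp apart on the same strand of chromosome I with no gene between them, and had log2 fold changes of −0.94 and −0.35. The npp-15 and ran-2 genes lie 479 bp apart on the same strand of chromosome III, at −0.56 and −0.28.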
